A study of Mus musculus with 76 samples.

Results

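Aminoacyl-tRNA synthetases attach amino acids to their transfer RNAs, and 36 genes of this family were followed here from the oocyte to the early postimplantation embryo of the mouse, with and without Ezhip in the egg. The genes were taken from the 48321 in the count tables by their symbols alone: the letter of an amino acid followed by "ars", with or without a closing 1 or 2, plus the phenylalanine subunits Farsa and Farsb and the fused gene Eprs. Of the 36, 20 encode cytosolic enzymes, and 16, whose symbols end in 2, encode mitochondrial ones. No expression value was used to choose them, and all 36 passed the filter on low counts in every comparison, so counts of members below are counts over the whole family. Ezhip, listed under its older symbol AU022751, encodes an inhibitor of the histone methyltransferase complex PRC2. Polyadenylated RNA was sequenced from 76 libraries, each from an oocyte, a 2-cell embryo, a blastocyst or the extraembryonic ectoderm (ExE) of an embryo at embryonic day 6.5. Each stage has wild-type (WT) libraries and libraries labelled as Ezhip maternal knockout (matKO): 3 WT and 4 matKO oocytes, 11 and 12 2-cell embryos, 14 and 14 blastocysts, and 10 and 8 ExE samples. The labels give the sex of the embryos. The sources used here do not give the mouse strain, the age and number of the mothers, the litter, or the embryo's own genotype, so the p-values measure the spread between these samples.

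The enzymes fall into class I and class II, which have unrelated catalytic folds; here 18 genes are class I, 17 are class II and Eprs, which charges both glutamate and proline tRNAs, belongs to both. The cytosol and the mitochondrion mostly use separate genes, but Gars (glycine) and Kars (lysine) supply both compartments. Of the cytosolic enzymes, 8 (Eprs, Iars, Lars, Mars, Qars, Rars, Kars and Dars) are held in a multi-synthetase complex by the scaffold proteins Aimp1, Aimp2 and Eef1e1. When amino acids are short, the transcription factor Atf4 induces many cytosolic synthetase genes by binding composite elements, shared with C/EBP proteins, near their start sites. An egg carries a store of maternal transcripts that is cleared around the 2-cell stage as the embryo's own genome is switched on. The blastocyst then contains the first trophectoderm, and the ExE descends from it and contributes to the placenta.

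The 5 promoter stretches that hold a C/EBP-ATF composite element are shown first because this amino acid response acts through such elements. The values of their genes are followed through the results. The stretches come from RefSeq windows of 300 bases, from 250 before to 50 after the start site (build GRCm38.p6). Windows matched 27 of the 36 genes by symbol, and the other genes were not searched. Nars, Hars, Lars, Hars2, Vars, Cars, Wars and Rars were among those with no entry. Each is written 5′ to 3′ on the strand of the gene, the capitals mark the element TGATGNAA or its reverse complement, and the region and gene strand follow the symbol.
Yars, chr4:129189895-129189924, plus strand: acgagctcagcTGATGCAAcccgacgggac
Gars, chr6:55037931-55038000, plus strand: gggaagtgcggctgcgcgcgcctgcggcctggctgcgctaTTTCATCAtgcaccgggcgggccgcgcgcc
Aars, chr8:111033690-111033777, plus strand: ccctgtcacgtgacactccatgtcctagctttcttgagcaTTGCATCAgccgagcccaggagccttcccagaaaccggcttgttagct
Iars, chr13:49682126-49682155, plus strand: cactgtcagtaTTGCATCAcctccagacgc
Tars, chr15:11399659-11399713, minus strand: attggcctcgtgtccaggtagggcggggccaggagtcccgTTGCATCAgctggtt
The element begins at position 3 after the start site in Yars and 7 in Iars, and at -30 in Gars, -112 in Aars and -15 in Tars. Only in Yars does it read TGATGNAA on the gene's strand. In the search on both strands, 5 of the 27 windows (18.5%) held it, against 3.97% of all 32851 windows of the same table. All 5 belong to the 13 matched cytosolic genes, and 0 of the 14 matched mitochondrial windows held it. The Aars window holds 2 matches, 1 of which is printed. The E-box CACGTG, read by the Myc and Tfe families, was in 5 windows (Aars, Ears2, Farsb, Iars and Tars), against 7.15% of all windows. The palindromic Nrf1 motif was in 5 (Farsb, Iars2, Kars, Mars2 and Tars), against 4.6%. No match of either motif overlapped one of the composite element. A match describes these letters and is not evidence of binding.

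The libraries held 1049224 to 31985958 counted reads, with the shallowest among WT 2-cell embryos, so low members are least precise there. Ezhip checked the labels: its level ran from 932 to 1508 CPM (counts scaled to a common library total) in WT oocytes and from 0.116 to 0.569 in matKO oocytes. In 2-cell embryos it ran from 38.6 to 337 CPM in WT and from 0 to 18.9 in matKO, and by the blastocyst both genotypes overlapped. In ExE, the summed level of 9 ExE markers had a median of 733.5 CPM in WT and 743.9 in matKO, and 7 visceral endoderm markers, a neighbouring tissue, reached medians of 3668 and 3530. Library identifiers carry prefixes that the labels do not explain. In ExE every WT library has D1042C and every matKO library D707T, so the effects of genotype and prefix cannot be told apart there. Blastocysts of both genotypes occur under D405T (10 WT, 6 matKO) and D707T (4 WT, 8 matKO), and values within each prefix are given beside the pooled ones.

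Per length, the cytosolic genes stood above the mitochondrial ones at every stage in WT. Levels were put on the RPKM scale, which divides the scaled CPM by exon length, as levels of different genes can be compared only per length. The median over the 20 cytosolic genes, each at its median over WT libraries, was 9.85 RPKM for oocytes, 13.3 for 2-cell embryos, 59.2 for blastocysts and 34.1 for ExE. Over the 16 mitochondrial genes it was 1.69, 2.61, 10.7 and 5.69. In WT oocytes the highest members were Iars (isoleucine) at 109 RPKM, Farsb, a subunit of the cytosolic phenylalanine enzyme, at 75.5, Rars (arginine) at 65.6 and Qars (glutamine) at 54.0. The lowest was Yars (tyrosine) at 0.0359 RPKM, although it is the only cytosolic tyrosine gene of the family, followed by Nars2 at 0.398, Mars2 at 0.465 and Cars2 at 0.826. By the 2-cell stage Kars led at 149 RPKM, and it still led in blastocysts at 235 RPKM, followed by Nars (asparagine) at 198 and Farsb at 159. In WT ExE the leading values of Nars (127 RPKM), Gars (124) and Kars (113) lay close together. Mars2 (mitochondrial methionine) and Nars2 (mitochondrial asparagine) were among the 4 lowest members in WT oocytes, blastocysts and ExE. The deposited lengths are of all exons of a gene together, which lowers the RPKM of genes with long alternative exons. The length of a GENCODE transcript can also exceed the deposited one, as for Tars (threonine), at 4005 against 2636 bases. With transcript lengths in their place, Tars, at 124 RPKM the fourth member in WT blastocysts, drops to rank 11.

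The whole family took up a small share of each library, and that share was highest in blastocysts. In WT the family's share of all counts had a median of 0.274% for oocytes (0.261 to 0.296), 0.284% for 2-cell embryos (0.235 to 0.336), 0.575% for blastocysts (0.436 to 0.778) and 0.401% for ExE (0.367 to 0.427). In matKO the medians were 0.294%, 0.259%, 0.553% and 0.353%. Within each stage the ranges of the genotypes overlapped. In ExE the direction of the family's difference turned with the scaling: the share was lower in the median matKO library, whereas the TMM-scaled sum was higher, at 5050 CPM (3544 to 5962) against 4298 in WT (3705 to 5548), also with overlap. By its share, every blastocyst library of either genotype lay above every oocyte and every 2-cell library. The mitochondrial share did not overlap between the genotypes in ExE: it was 0.0565% in WT (0.0514 to 0.0740) and 0.0364% in matKO (0.0323 to 0.0469), but with TMM scaling the summed levels of these genes overlapped, at 632.9 CPM in WT (478.0 to 963.8) and 496.3 in matKO (429.4 to 605.1). The mitochondrial share in the other stages had WT and matKO medians of 0.0343% and 0.0325% for oocytes, 0.0551% and 0.0507% for 2-cell embryos, and 0.0645% and 0.0633% for blastocysts. Counts of cytosolic genes were 5.76 times those of mitochondrial genes in the median WT ExE library (4.65 to 6.99) and 8.99 times in the median matKO ExE library (6.68 to 9.93).

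**Figure D1:**
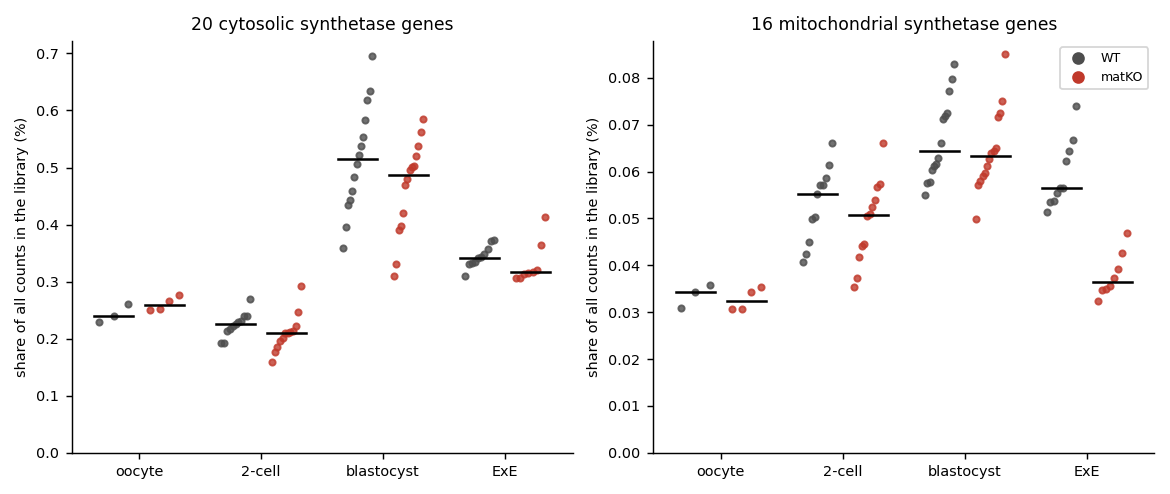
Share of all counted reads in percent (vertical axis) from the cytosolic genes (left panel) and the mitochondrial genes (right panel), by stage and genotype. Points are libraries and bars are medians; the unscaled mitochondrial share does not overlap between WT and matKO ExE, while the cytosolic shares overlap between genotypes at every stage.

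The first step, from oocyte to 2-cell embryo, moved single members in both directions. Stage differences below are log2 changes with their standard error (SE) from 1 fit over all 76 libraries, tested by edgeR's quasi-likelihood test with Benjamini-Hochberg adjusted p over 20943 genes, and CPM values beside them are scaled over all stages. In WT, 10 members rose and 10 fell, among 42.7% of all genes called (22.1% higher, 20.6% lower), with a median change of -0.05 over the family and 0.07 over all genes. Of the cytosolic genes 4 rose and 7 fell, and of the mitochondrial genes 6 rose and 3 fell. In matKO, 8 rose and 14 fell, where 47.3% of genes were called. The median was -0.53 over the family and -0.06 over all genes. The same 8 members rose in both genotypes (Mars2, Yars, Ears2, Cars2, Aars, Kars, Hars and Hars2), and 9 fell in both (Rars2, Gars, Cars, Qars, Wars, Iars, Vars2, Aars2 and Lars). RNA is counted relative to its own library without a spike-in, and in whole samples fewer cells of a type and less RNA per cell cannot be told apart.

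Yars was nearly absent from WT oocytes and present in every 2-cell embryo. Its 3 WT oocytes held 0.0761, 0.213 and 4.03 CPM and its WT 2-cell embryos a median of 34.9 CPM, from 13.6 to 80.9. No WT oocyte reached the lowest WT 2-cell embryo, and the change was 4.79 ± 0.68 (adjusted p = 2.24e-08). In matKO oocytes Yars had a median of 3.73 CPM (1.09 to 10.6) and in matKO 2-cell embryos 19.6 (4.86 to 52.9), which overlap. Hars2, the mitochondrial histidine gene, went from 2.18, 4.55 and 4.72 CPM in WT oocytes to a median of 54.2 (27.2 to 119) in WT 2-cell embryos, without overlap, a change of 3.98 ± 0.56 (adjusted p = 1.33e-08). Ears2, whose enzyme also starts the indirect route to mitochondrial glutaminyl-tRNA, rose by 2.81 ± 0.42 (adjusted p = 6.1e-08), from 5.19 to 7.84 CPM in WT oocytes to 25.6 to 125 in WT 2-cell embryos. Kars, already abundant at 92.2 to 106 CPM in WT oocytes, reached 274 to 523 in WT 2-cell embryos (1.84 ± 0.29, adjusted p = 2.09e-07). In matKO, Mars2 was among the 4 that rose with the smallest p, from 2.64 CPM (1.32 to 3.62) in oocytes to 32.3 (17.5 to 64.4) in 2-cell embryos (3.69 ± 0.47, adjusted p = 3.95e-10). Hars2 overlaps its neighbour Hars head to head over 195 bases of exon, and with no strand setting given the reads there cannot be assigned.

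Among the members that fell, Iars, the highest in WT oocytes, held 397, 573 and 608 CPM there and a median of 191 (154 to 285) in WT 2-cell embryos. All 11 WT 2-cell embryos lay below the WT oocytes (-1.36 ± 0.25, adjusted p = 1.05e-05). Qars, the glutamine enzyme of the complex, went from 299, 355 and 505 CPM to a median of 124 (73.8 to 233), again without overlap (-1.41 ± 0.29, adjusted p = 5.71e-05). Cars (cysteine) went from 48.7, 55 and 57.7 CPM to a median of 17.2 (10.7 to 30.6), without overlap (-1.53 ± 0.37, adjusted p = 0.000563). Vars2, the mitochondrial valine gene, went from 36.1, 39.2 and 42.4 CPM to a median of 4.52 (0 to 20.7), and its change was -2.44 ± 0.54 (adjusted p = 0.000163). In matKO, Lars (leucine) had the smallest p, and went from a median of 36.2 CPM (24.4 to 42.2) in oocytes to 3.15 (0 to 6.9) in 2-cell embryos, without overlap (-3.51 ± 0.41, adjusted p = 3.07e-11). Rars2, the mitochondrial arginine gene, went from a median of 30.2 CPM (23.6 to 38) to 1.48 (0.373 to 9.75) in matKO (-3.57 ± 0.54, adjusted p = 8.36e-08). Of the 5 genes with the composite element, Yars and Aars (alanine) rose and Gars and Iars fell in both genotypes, while Tars fell in matKO (-2.43 ± 0.43, adjusted p = 2.84e-06) and had a change of -0.79 ± 0.50 in WT (adjusted p = 0.195). No member's step differed between genotypes: 0 of 36 were called, with 0.0525% of all genes called (0.00477% higher, 0.0477% lower), and 7 members had an unadjusted p under 0.05. DESeq2 also called 0. The difference for Tars was -1.64 ± 0.70 (adjusted p = 0.49), and the smallest adjusted p belonged to Yars (-2.40 ± 0.70, adjusted p = 0.238), Sars2 (-2.01 ± 0.68, adjusted p = 0.314) and Lars (-1.87 ± 0.67, adjusted p = 0.35).

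From the 2-cell embryo to the blastocyst nearly the whole family rose. In WT, 32 members rose and 2 fell, where 70.2% of all genes were called, 28.3% higher and 41.9% lower. The median change was 1.87 over the family and -0.51 over all genes. All 20 cytosolic genes rose, with a median of 2.13, as did 12 of the 16 mitochondrial genes, with a median of 1.36. The 8 members of the multi-synthetase complex had a median change of 1.20, and the other 12 cytosolic genes 2.47. In matKO, 32 also rose and 2 fell, with 72.5% of all genes called, 29% higher and 43.5% lower, and the medians were 1.87 over the family and -0.55 over all genes. Members that rose in both genotypes numbered 31, and the same 2, Mars2 and Fars2 (mitochondrial phenylalanine), fell in both. Under scaling by library totals alone the median change of all genes in WT moved to -1.07 and that of the family to 1.28.

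Vars, whose enzyme for valine binds the elongation factor EF-1, had the steepest rise among the named members. It held a median of 5.6 CPM (0 to 13.9) in WT 2-cell embryos and 261 CPM (101 to 569) in WT blastocysts, without overlap, a change of 5.52 ± 0.48 (adjusted p = 7.91e-17). Gars had the smallest p. It went from a median of 58.3 CPM (38.6 to 118) to 370 (226 to 514) in WT, without overlap (2.60 ± 0.19, adjusted p = 3.31e-20), and from 36.9 (18 to 63.2) to 321 (141 to 485) in matKO (3.04 ± 0.19, adjusted p = 4.66e-24). Wars (tryptophan) rose by 2.72 ± 0.24 in WT (adjusted p = 5.61e-17), from 28.9 CPM (14.8 to 54.9) to 177 (77.1 to 406). Nars rose by 2.60 ± 0.23 (adjusted p = 6.65e-17), from 76.5 CPM (35.9 to 158) to 520 (269 to 776). For both, all 14 WT blastocysts lay above all 11 WT 2-cell embryos. In matKO, Tars went from 6.69 CPM (2.8 to 25.3) to 277 (177 to 469), a change of 4.92 ± 0.38 (adjusted p = 9.9e-20), and Lars from 3.15 (0 to 6.9) to 70.9 (37.9 to 116), a change of 4.60 ± 0.35 (adjusted p = 1.1e-19). Neither overlapped between the stages.

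All 5 genes with the composite element rose at this step in WT, by 1.15 for Iars, 1.42 for Aars, 2.34 for Yars, 2.60 for Gars and 3.95 for Tars. These lie on both sides of the family's median of 1.87. Fars2 moved against the family. It held 82.7 CPM (66.4 to 126) in WT 2-cell embryos and 29.9 (14.2 to 49.1) in WT blastocysts, without overlap, a change of -1.61 ± 0.22 (adjusted p = 1.08e-09). In matKO its change was -2.33 ± 0.22 (adjusted p = 1.45e-15), from 116 CPM (95.6 to 188) to 25.8 (9.33 to 41.7). Mars2 went from 29.6 CPM (13.4 to 53.5) to 13.4 (7.48 to 20.3) in WT, and these ranges overlap (-1.03 ± 0.25, adjusted p = 0.000224).

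From blastocyst to ExE the family fell in WT. There 1 member rose and 19 fell, where 54.7% of all genes were called, 31.7% higher and 23% lower. The median was -0.50 over the family and 0.16 over all genes. Of the cytosolic genes 0 rose and 13 fell, and of the mitochondrial genes 1 rose and 6 fell. In matKO, 2 rose and 10 fell, where 48.9% of genes were called, 30.3% higher and 18.6% lower, and the medians were -0.34 and 0.16. No member rose in both genotypes, and 9 fell in both: Dars (aspartate), Sars (serine), Sars2, Ears2, Cars2 (mitochondrial cysteine), Aars, Kars, Qars and Mars (methionine). The stages differ in tissue as well as in time, since a whole blastocyst is set against a dissected lineage, and in ExE the prefix differs between genotypes. In WT no prefix occurs in both stages, so the effects of step and prefix cannot be told apart there. In matKO, D707T occurs in both. Across the family the change went with the GC content of the transcripts at a Spearman's rho of -0.575 in WT and -0.15 in matKO.

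Fars2 fell again in WT, from 29.9 CPM (14.2 to 49.1) to 6.43 (3.58 to 13.8), without overlap (-1.96 ± 0.24, adjusted p = 1.13e-10). Wars fell from 177 CPM (77.1 to 406) to 53.2 (24.5 to 74.8), a change of -1.90 ± 0.24 (adjusted p = 1.67e-10), and all 10 WT ExE samples lay below all WT blastocysts. Vars fell from 261 CPM (101 to 569) to 34.1 (15.7 to 67.8), also without overlap (-2.88 ± 0.43, adjusted p = 3.93e-08). Kars fell by 1.11 ± 0.16 in WT (adjusted p = 2.27e-08). Mars2 was the 1 member that rose in WT, from 13.4 CPM (7.48 to 20.3) to 24 (12.8 to 31.4), with overlapping ranges (0.73 ± 0.26, adjusted p = 0.0134). The 2 that rose in matKO were Eprs (0.85 ± 0.24, adjusted p = 0.00205) and Lars (0.86 ± 0.32, adjusted p = 0.0193). Also in matKO, Wars2 fell by 2.11 ± 0.47 (adjusted p = 0.000107), Mars by 1.35 ± 0.31 (adjusted p = 0.000171) and Aars by 0.75 ± 0.20 (adjusted p = 0.000926). Ears2 fell in matKO from 86.8 CPM (63.1 to 127) to 25.6 (16.9 to 36.6), without overlap (-1.69 ± 0.25, adjusted p = 2.59e-08).

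**Figure D2:**
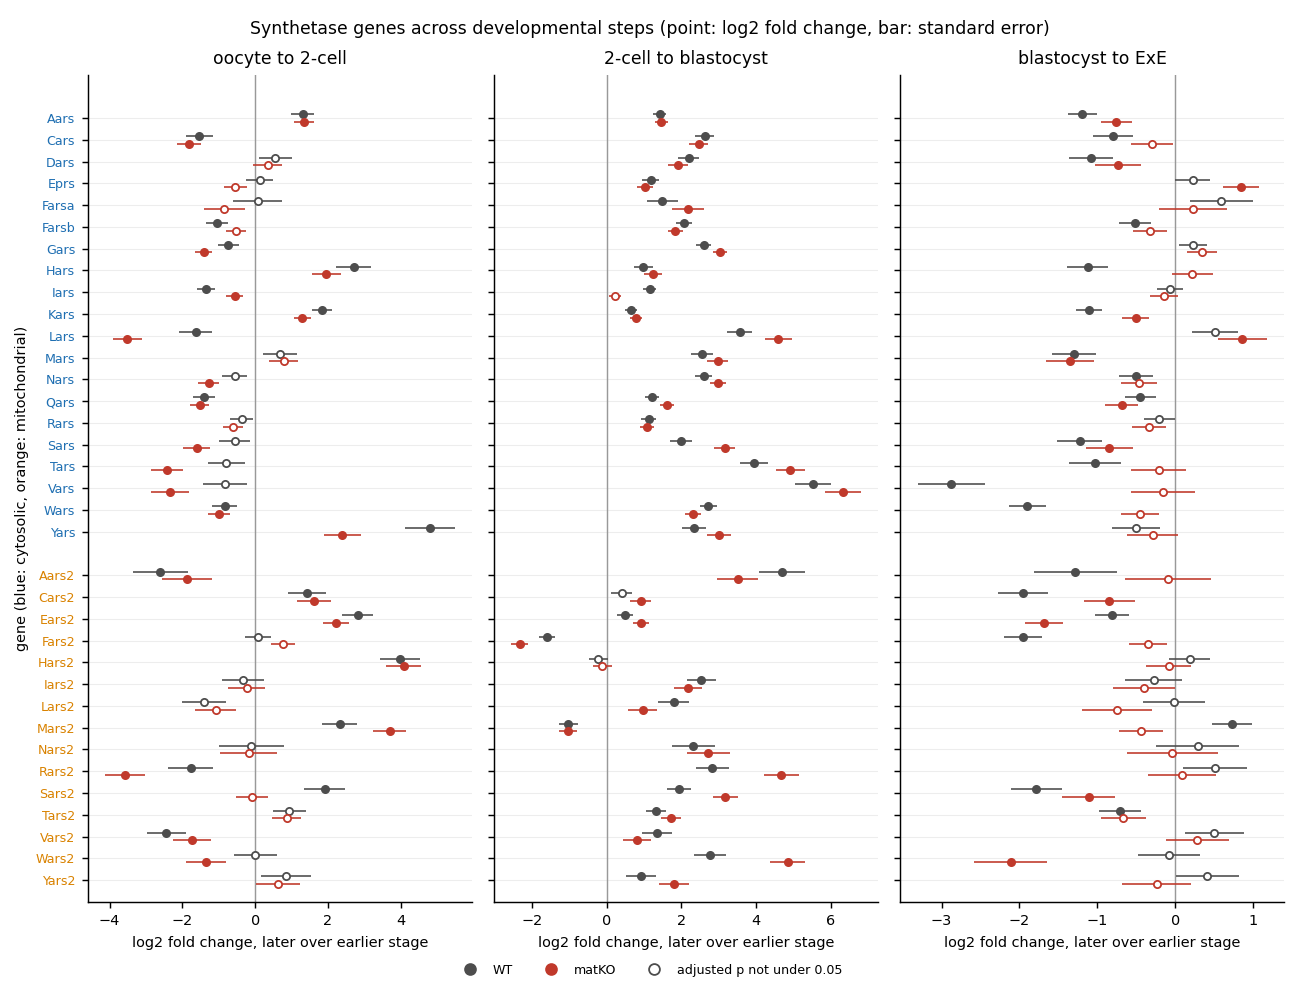
Log2 change of 35 synthetase genes between successive stages (1 panel a step), with its standard error, in WT (grey) and matKO (red); open points did not pass the adjusted p of 0.05. Nearly all genes lie above 0 from 2-cell embryo to blastocyst, with Fars2 and Mars2 below it in both genotypes.

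Over all 3 steps in WT, the most frequent course, in 8 members (Iars2, Eprs, Wars2, Nars2, Farsa, Lars2, Rars and Yars2), was a called change only into the blastocyst, upwards. In 7 members (Dars, Tars2, Sars, Mars, Tars, Vars and Nars) that rise was followed by a called fall into ExE. A rise at both early steps and a fall into ExE was called in 5 (Sars2, Ears2, Aars, Kars and Hars), and a fall, a rise and a fall in another 5 (Farsb, Cars, Qars, Wars and Aars2). Rars2, Gars, Iars, Vars2 and Lars fell, rose and then had no call. Yars rose at both early steps with no later call. Mars2, Cars2, Hars2 and Fars2 each had a course of their own. Cytosolic and mitochondrial genes for the same amino acid could take different courses: Fars2 fell after the 2-cell stage while Farsa and Farsb rose, and Mars2 fell into the blastocyst while Mars rose. No test between partners was made.

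Some steps differed between the genotypes by the test of the difference itself. From 2-cell embryo to blastocyst, 4 members had a more positive change in matKO and 1 a more negative one, where 9.02% of all genes were called (4.6% higher, 4.42% lower). Wars2 (mitochondrial tryptophan) rose more in matKO by 2.09 ± 0.56 (adjusted p = 0.0115), Rars2 by 1.85 ± 0.59 (adjusted p = 0.0337), Sars by 1.17 ± 0.37 (adjusted p = 0.0352) and Sars2 by 1.24 ± 0.42 (adjusted p = 0.05). For Sars2 the unrounded value lies just under the threshold. Iars, with a difference of -0.94 ± 0.23 (adjusted p = 0.00648), rose by 1.15 ± 0.17 in WT and changed by 0.21 ± 0.16 in matKO (adjusted p = 0.233). Its medians were 191 CPM in WT 2-cell embryos and 432 in WT blastocysts, against 312 and 376 in matKO. The fit over all stages held no term for prefix. All 2-cell embryos are D707T, whereas blastocysts are split between D405T and D707T in shares that differ by genotype. The calls of Wars2, Rars2, Sars and Sars2 were each lost with D707T blastocysts alone. That of Iars was lost under no other setting of the analysis.

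From blastocyst to ExE, 4 members had a more positive step in matKO and 2 a more negative one, where 8.83% of all genes were called (5.88% higher, 2.95% lower). Vars fell in WT, but its medians in matKO were 290 CPM in blastocysts and 271 in ExE (difference of steps 2.72 ± 0.57, adjusted p = 0.000784). Fars2 differed by 1.61 ± 0.33 (adjusted p = 0.000642), Wars by 1.45 ± 0.32 (adjusted p = 0.00171) and Hars (histidine) by 1.35 ± 0.36 (adjusted p = 0.0105). Wars2 differed by -2.03 ± 0.60 (adjusted p = 0.0203): its medians went from 33.6 to 32.3 CPM in WT and from 62.3 to 14.1 CPM in matKO. Mars2 differed by -1.17 ± 0.38 (adjusted p = 0.041). The calls of Mars2 and Wars2 were lost under 3 and 1 other settings. These differences share their libraries with the comparisons of genotype within a stage, given next, and are no separate evidence.

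In oocytes, where Ezhip was lost, no synthetase gene was called between genotypes. The count was 0 of 36 by edgeR's quasi-likelihood test, with 0.0202% of all genes called (3 of 14838), 2 members had an unadjusted p under 0.05, and DESeq2 also called 0 members, with 32 of 14792 genes called. The median change, matKO over WT, was 0.13 over the family and 0.02 over all genes. CPM values from here on are scaled within the stage. Kars had 105.1, 125.2 and 122.3 CPM in WT oocytes and 149.0, 166.2, 148.4 and 193.4 in matKO oocytes. All 4 matKO oocytes lay above all 3 WT oocytes, and the log2 change was 0.48 ± 0.17 (unadjusted p = 0.0193, adjusted p = 0.785 by edgeR). Tars had 55.9, 34.4 and 36.2 CPM in WT and 48.9, 62.5, 77.0 and 60.6 in matKO, with overlap (0.56 ± 0.25, adjusted p = 0.791). Cars had 65.8, 64.9 and 56.1 CPM in WT and 71.2, 90.8, 88.9 and 78.9 in matKO, also without overlap (0.40 ± 0.18, adjusted p = 0.791). Mars2 and Cars2 were lower in every matKO oocyte than in any WT oocyte. The share of all genes that separate in this way is not given, so the separation is not shown to be particular to these members. With 3 against 4 oocytes, changes of this size could not be told from the spread between oocytes. In oocytes summed cumulus and granulosa markers ran from 979.8 to 2305 CPM in WT and from 536.6 to 2657 in matKO. Summed decidua and uterine stroma markers did not overlap, at 94.4 to 159.7 CPM in WT and 26.7 to 55.7 in matKO. Primitive endoderm markers separated in the other direction, at 28.9 to 46.1 CPM in WT and 53.1 to 77.9 in matKO. The part of these markers in the synthetase values was not tested.

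In 2-cell embryos, 0 of 36 members were called, where 0.731% of all genes were (106 of 14506). At an unadjusted p under 0.05 there were 6 members, and DESeq2, which called 651 of 14486 genes, called 3, with Fars2 and Iars higher and Rars2 lower. The median change was -0.26 over the family and 0.02 over all genes. Iars was nearest to a call. It held a median of 247 CPM (201 to 368) in WT and 408 (292 to 520) in matKO 2-cell embryos, and 8 of the 12 matKO embryos exceeded all WT embryos. Its log2 change was 0.61 ± 0.16 (adjusted p = 0.0554 by edgeR, and from 0.00271 to 0.367 over the other settings). Fars2 held 105 CPM (85.9 to 161) in WT and 154 (123 to 251) in matKO, with overlap (0.56 ± 0.16, adjusted p = 0.0945). Gars held 75 CPM (49.8 to 151) in WT and 49.3 (23.9 to 81.3) in matKO (-0.62 ± 0.22, adjusted p = 0.192).

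These 2-cell values moved beside markers of stage and of other cells. The summed level of markers of the 2-cell stage was 234 CPM (97.4 to 654) in WT and 1128 (292 to 2761) in matKO, and 7 of the 12 matKO embryos exceeded all WT embryos. Summed granulosa and cumulus markers were 401 CPM (96 to 1685) in WT and 128 (58.4 to 301) in matKO. Their part in the synthetase values was not tested. The 8 oocyte markers summed to 1622 CPM (1293 to 2911) in WT and 2862 (1487 to 3959) in matKO, and 6 of the 12 matKO sums exceeded all WT sums. Their part was not tested either. Leaving out the 8 WT embryos whose mean log2 granulosa level lay above every matKO embryo again left 0 members called. The matKO 2-cell embryos fall into identifier numbers 37 to 41 and 42 to 48. With only 42 to 48 kept, 3 members were higher (Fars2, Iars and Vars2) and 10 lower (among them Eprs, Rars2, Yars, Mars, Rars, Yars2, Hars, Hars2 and Nars), among 3728 of 16550 genes called. With only 37 to 41 kept, 0 were called. The 2 runs also differ in depth: 42 to 48 held 1476150 to 4653399 counted reads, and 37 to 41 held 4189675 to 10967492. The part of depth in these calls was not tested.

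In blastocysts 3 synthetase genes differed between genotypes: Wars2 and Sars were higher in matKO and Hars was lower. Over all genes 6.3% were called, 2.75% higher and 3.55% lower (847 of 13445), so the share of members called lies near the background. The median change was 0.02 over the family and -0.03 over all genes. The fit held terms for sex and identifier prefix.

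Wars2 (chromosome 3, 99141068 to 99239186 on mm10) supplies tryptophanyl-tRNA to mitochondria. It held 27.3 CPM (16.1 to 44.7) in WT and 57.3 (33.2 to 92.3) in matKO blastocysts, and 12 of 14 matKO blastocysts lay above every WT blastocyst. The log2 change was 0.91 ± 0.16 (adjusted p = 0.000936). It was 0.86 within D405T (adjusted p = 0.0285), where WT ran from 16.1 to 44.7 CPM and matKO from 33.2 to 76.9. Within D707T it was 0.99 (adjusted p = 0.0883), where WT ran from 23.7 to 42.8 and matKO from 52.7 to 92.3, without overlap. The cytosolic partner Wars had medians of 156 CPM in WT and 142 in matKO and was not called.

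Sars (chromosome 3, 108424865 to 108445209) charges serine and selenocysteine tRNAs in the cytosol. It held 107 CPM (44.99 to 138) in WT and 148 (72.5 to 313) in matKO, overlapping, with a log2 change of 0.72 ± 0.20 (adjusted p = 0.0265). Within D405T it was 0.20 (adjusted p = 0.587), with 113 CPM (65.7 to 138) in WT and 140 (72.5 to 150) in matKO. Within D707T it was 1.49 (adjusted p = 0.0174), with 69.8 CPM (44.99 to 89.7) in the 4 WT and 183 (126 to 313) in the 8 matKO blastocysts, all of them above every WT one. The difference between the prefixes was not tested. Of 38 other settings 7 lost the call, D405T alone included, among them library totals in place of TMM scaling (0.61, adjusted p = 0.0553) and leaving out WT female 5 or WT male 4, 5 or 6.

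Hars held 155 CPM (128 to 228) in WT and 113 (84.5 to 152) in matKO blastocysts (-0.49 ± 0.11, adjusted p = 0.00757). Within D405T the change was -0.23 (adjusted p = 0.284) and within D707T -0.85 (adjusted p = 0.0603), where all 8 matKO blastocysts lay below all 4 WT ones. Qars and Nars2, which were not called, also separated fully within D707T, Qars with all 8 matKO blastocysts above and Nars2 with all 8 below. The share of all genes that separate in this way is not given, so the separation is not shown to be particular to the called members. None of the 5 genes with the composite element was called in blastocysts: their changes were 0.25 for Aars, 0.08 for Yars, 0.00 for Gars, -0.03 for Tars and -0.21 for Iars. A list of 8 trophectoderm markers summed to 4687 CPM (2302 to 6848) in WT and 2358 (1063 to 4852) in matKO, and 4 of the 8 were called lower. The 7 epiblast and mesoderm markers summed to 149 CPM (55.9 to 189.5) in WT and 50.3 (13.75 to 201.6) in matKO, the 9 ExE markers to 929.9 (454.4 to 1482) and 499.7 (361.4 to 1057), and the 7 visceral endoderm markers to 36.7 (11.48 to 110.6) and 141 (17.39 to 497.5). All these ranges overlap, and the part of the markers in the synthetase values was not tested.

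**Figure D3:**
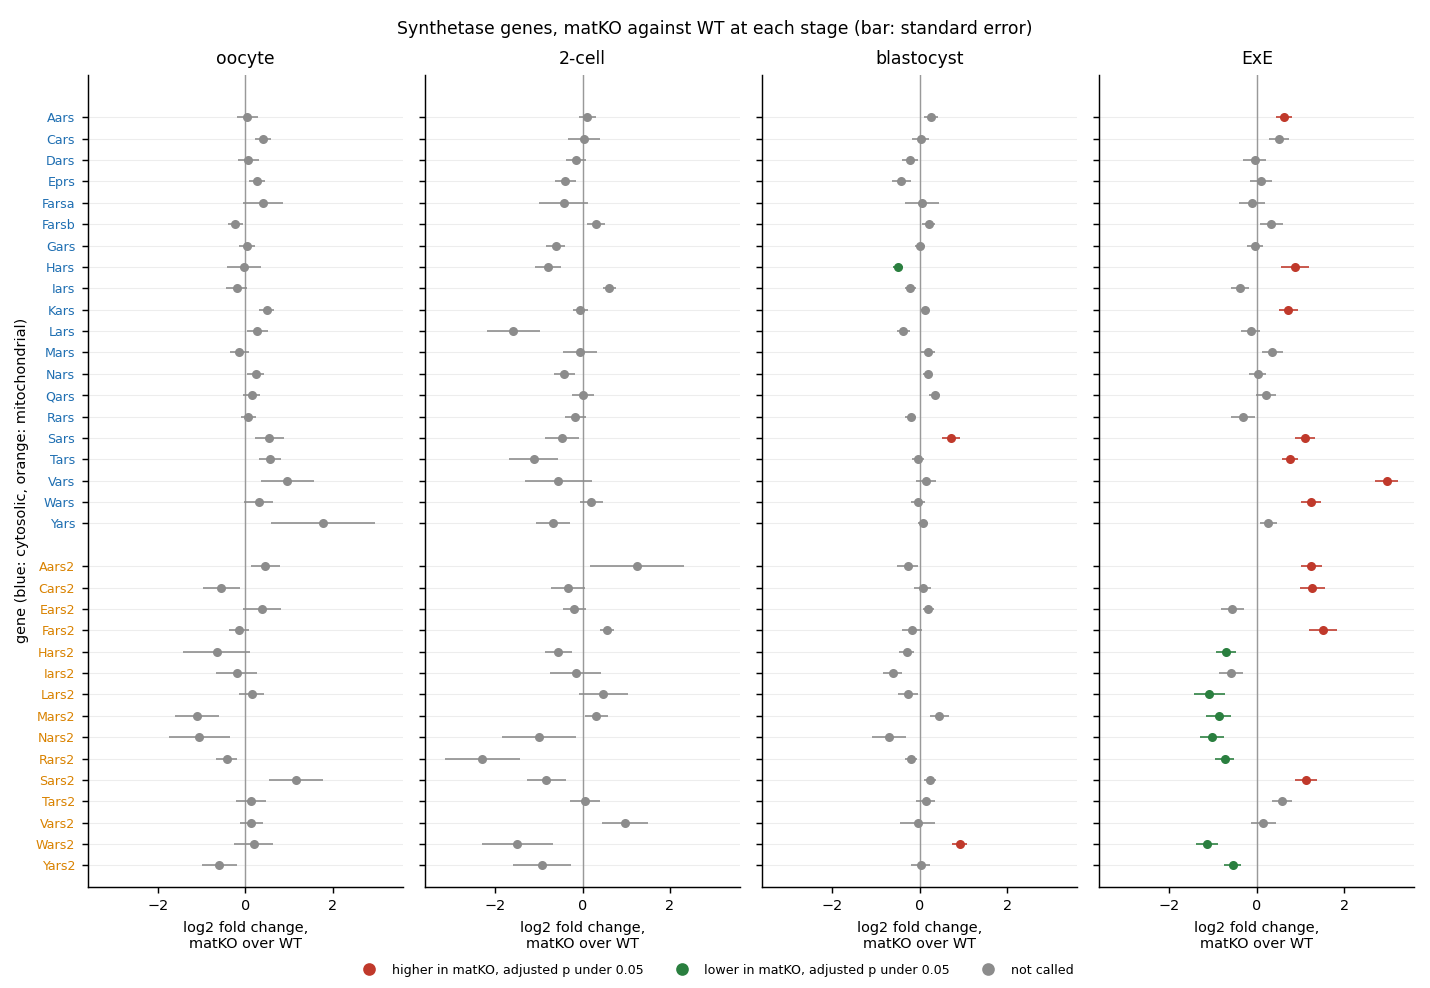
Log2 change, matKO over WT, of 35 synthetase genes at each stage, with its standard error; red genes were called higher in matKO, green genes lower, and grey genes were not called at an adjusted p of 0.05. No gene is coloured in oocytes or 2-cell embryos, 3 are in blastocysts and 18 are in ExE, where the coloured cytosolic genes all lie above 0 and the mitochondrial ones on both sides.

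In ExE the cytosolic and mitochondrial genes parted. Of the cytosolic genes 7 were higher in matKO and 0 lower, and of the mitochondrial genes 4 were higher and 8 lower. Together 11 members were higher and 8 lower, where 24.9% of all genes were called, 14.1% higher and 10.7% lower (3520 of 14156). The median change was 0.13 over the family and -0.07 over all genes, 0.30 over the cytosolic genes and -0.57 over the mitochondrial ones. Outside the multi-synthetase complex 6 of 12 cytosolic genes were higher, and inside it 1 of 8, Kars. Of the class II genes 8 were higher and 3 lower, and of the class I genes 3 higher and 5 lower. For every one of these values the prefix goes with the genotype, and their effects cannot be told apart.

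Vars (chromosome 17, 35000987 to 35016322) had the largest change. It held 27 CPM (13.2 to 58.2) in WT and 243 (172 to 343) in matKO ExE, so the lowest matKO sample stood well above the highest WT sample, and the log2 change was 2.97 ± 0.27 (adjusted p = 2.17e-07). Wars held 44.4 CPM (20.6 to 58.8) in WT and 96 (54.2 to 143) in matKO (1.24 ± 0.22, adjusted p = 0.000375). Sars, higher in matKO at this stage too, held 38.6 CPM (23.9 to 68.6) in WT and 99.7 (52.5 to 113) in matKO (1.10 ± 0.22, adjusted p = 0.00118). The ranges of Wars and Sars overlap at their edges.

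Tars, a carrier of the composite element, held 136 CPM (82.2 to 167) in WT and 226 (169 to 324) in matKO, without overlap (0.76 ± 0.18, adjusted p = 0.00376). Aars, with 2 such elements, held 127 CPM (84 to 154) in WT and 174 (127 to 268) in matKO (0.63 ± 0.19, adjusted p = 0.0185). Of the exon bases of Aars, 15.1% also lie in other genes, most of them in Exosc6 on the same strand, so its counts are less certain. The other 3 carriers were not called, with changes of 0.26 for Yars, -0.05 for Gars and -0.39 for Iars. Kars held 215 CPM (84.2 to 319) in WT and 328 (258 to 500) in matKO (0.72 ± 0.22, adjusted p = 0.0192). Hars, lower in matKO blastocysts, was higher in matKO ExE, at 148 CPM (44.7 to 207) against 58.6 (41.5 to 173) in WT, with nearly the same lower bounds (0.87 ± 0.31, adjusted p = 0.043). The Hars call was lost under 16 of 26 other settings and that of Aars under 5. Those of Tars and Kars were each lost under 2, namely library totals and leaving out the matKO samples rich in stroma markers.

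The 4 mitochondrial genes that were higher are those for alanine, phenylalanine, serine and cysteine. Aars2 held 14 CPM (8.02 to 19.9) in WT and 31.3 (20.1 to 62.6) in matKO, which just fail to overlap (1.25 ± 0.25, adjusted p = 0.001). Fars2 held 5.29 CPM (3.23 to 11.8) in WT and 15.6 (9.04 to 30.6) in matKO (1.51 ± 0.31, adjusted p = 0.00147). For Sars2 the levels were 16.4 CPM (7.72 to 33.9) and 42.8 (23.7 to 55.4), with a change of 1.12 ± 0.24 (adjusted p = 0.00226). Cars2 was low throughout, at 4.36 CPM (3.39 to 9.44) in WT and 11.3 (5.1 to 20.6) in matKO (1.27 ± 0.28, adjusted p = 0.00278). Both genes for alanine and both for serine were thus called higher, but with a GC offset in the fit only Sars of these 4 was: Aars had 0.13 (adjusted p = 0.635), Aars2 0.40 (adjusted p = 0.269) and Sars2 0.32 (adjusted p = 0.341).

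Among the 8 mitochondrial genes that were lower, Wars2, higher in matKO blastocysts, was lower in matKO ExE, at 11.7 CPM (7.12 to 23) against 26.1 (19.2 to 51.3) in WT (-1.15 ± 0.25, adjusted p = 0.00214). Nars2 held 17.3 CPM (7.36 to 23.9) in WT and 7.79 (2.94 to 12.1) in matKO (-1.03 ± 0.27, adjusted p = 0.00909). Rars2 (-0.74 ± 0.22), Hars2 (-0.71 ± 0.22), Lars2 (-1.08 ± 0.35), Mars2 (-0.87 ± 0.29) and Yars2 (-0.55 ± 0.20) had adjusted p from 0.0192 to 0.0472, and their ranges overlap between genotypes. Calls of Yars2 were lost under 18 of 26 other settings and those of Mars2 under 9. Nearest to a call among the remaining 17 was Tars2 (0.58 ± 0.22, adjusted p = 0.0554).

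**Figure D4:**
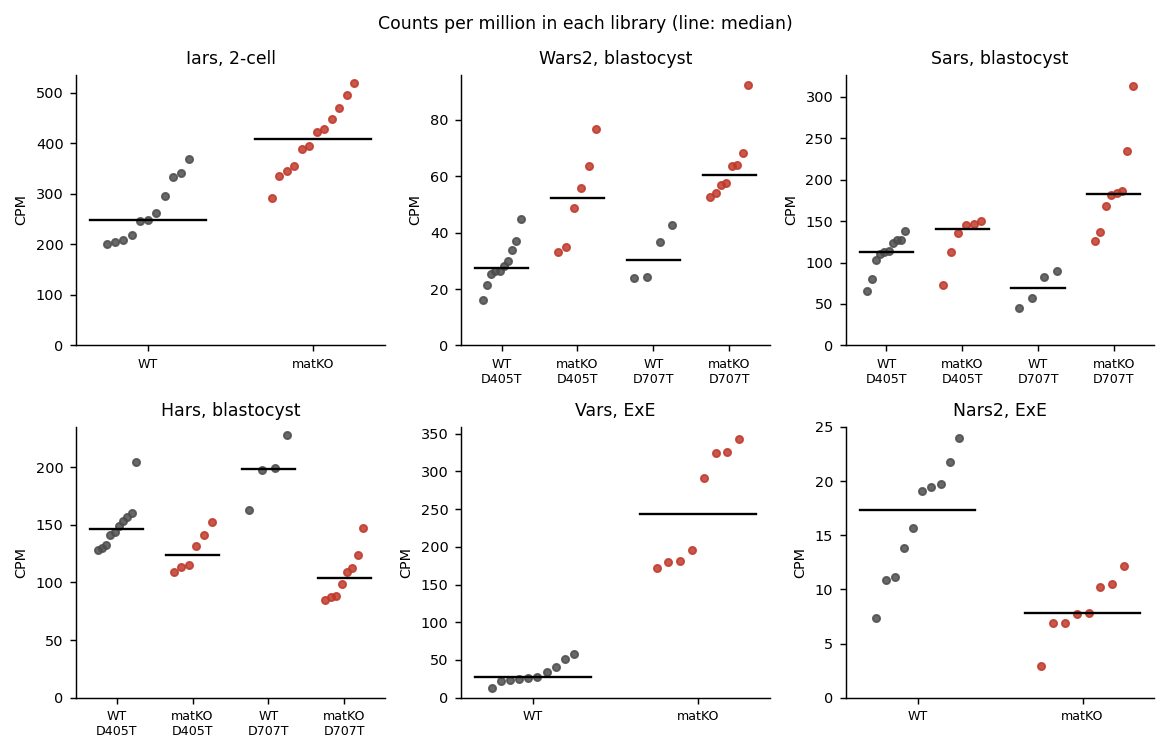
CPM (vertical axis, from 0) in each library for Iars in 2-cell embryos, Wars2, Sars and Hars in blastocysts split by identifier prefix, and Vars and Nars2 in ExE; points are libraries, WT grey and matKO red, and lines are medians. WT and matKO do not overlap for Vars in ExE and do for Nars2, and the gap for Sars and Hars in blastocysts is seen in D707T.

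The ExE change of a member went with its base composition. Across the 36 genes the log2 change correlated with the GC content of their transcripts (1 GENCODE transcript a gene) at a Spearman's rho of 0.65 and a Pearson's r of 0.65, as a description over genes that share all 18 libraries. For the genotype changes at the other stages rho was 0.50 in oocytes, 0.33 in 2-cell embryos and 0.24 in blastocysts. A positive relation was thus not confined to ExE. GC content was 55.8% in the median of the members called higher (46.6 to 60.9) and 46.3% in the median of those called lower (38.8 to 51.2). It was 50.9% (41.2 to 60.9) over the cytosolic and 47.96% (38.8 to 60.1) over the mitochondrial genes. With an offset for GC content in the fit, 8 members were higher (Tars2, Sars, Kars, Wars, Fars2, Tars, Vars and Hars) and 4 lower (among them Wars2, Ears2 and Lars2). Of these the cytosolic genes were 6 higher and 0 lower and the mitochondrial 2 and 4, among 2278 genes called. Vars then had a change of 2.15. The calls of Aars, Aars2, Sars2 and Cars2 as higher and of Nars2, Rars2, Hars2, Mars2 and Yars2 as lower were lost with this offset, and Tars2 and Ears2 gained one.

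**Figure D5:**
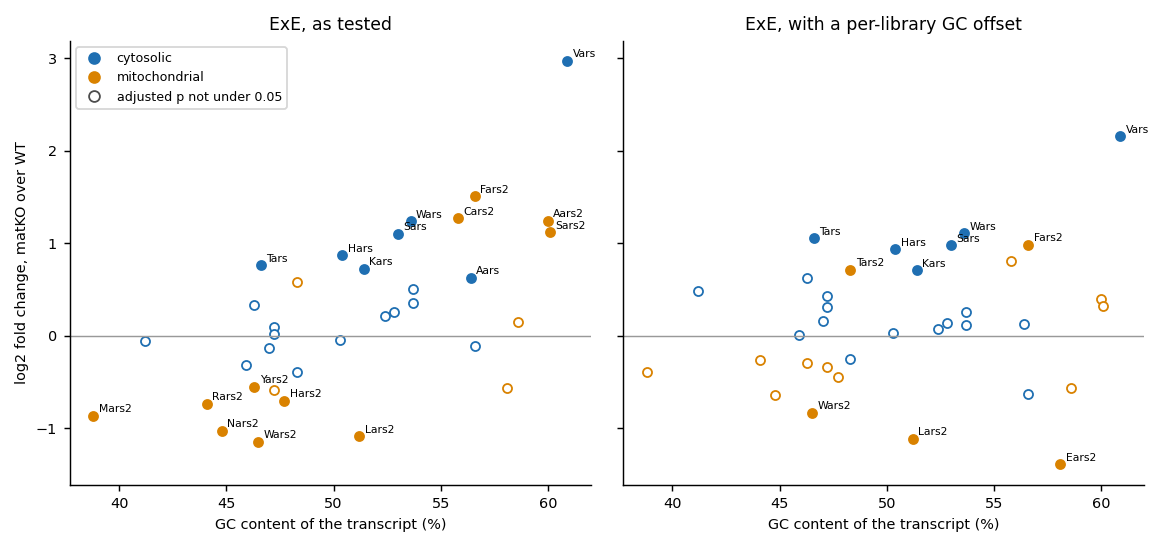
Log2 change in ExE, matKO over WT (vertical axis), against the GC content of the transcript in percent (horizontal axis) for 35 synthetase genes, as tested (left) and with the GC offset (right); cytosolic genes are blue, mitochondrial genes orange, and open points did not pass the adjusted p of 0.05. On the left, genes called higher lie mostly to the right of genes called lower; with the offset fewer genes are filled.

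Markers of maternal and neighbouring tissue differed between the ExE groups as well. Summed over 14 genes of decidua and uterine stroma, of which none was at 0, the level was 122 CPM (66.1 to 185) in WT and 339 (103 to 1023) in matKO, 6 of 8 matKO sums lay above every WT sum, and 6 of 11 tested markers were called higher. The 8 markers of ectoplacental cone and giant cells, with Ctsj at 0, summed to 109 CPM (63.3 to 344) in WT and 512.5 (61.2 to 3738) in matKO. The 6 blood markers summed to 2.45 CPM (0.0977 to 32.5) in WT and 107 (2.17 to 382.5) in matKO. Without the 6 matKO samples whose mean log2 stroma level lay above every WT sample, which leaves 2 matKO samples, 1 member was called: Vars at 2.90 (adjusted p = 0.00293), among 271 genes. With library totals in place of TMM scaling, which moved the median of all genes from -0.07 to -0.40, 7 members were higher and 11 lower. The cytosolic genes were then 3 higher and 1 lower, Iars, and the mitochondrial genes 4 higher and 10 lower.

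Genes that act beside the synthetases were counted from lists made for this purpose. Of 22 genes of the Atf4 response, 20 were tested in blastocysts, where 3 were higher in matKO and 0 lower (2.75% and 3.55% of all genes), with a median change of 0.47 over the list and -0.03 over all genes. Atf4 itself held 387 CPM (311 to 553) in WT and 567 (432 to 698) in matKO blastocysts (0.55 ± 0.10, adjusted p = 0.00101). Psat1, an enzyme of serine synthesis, held 724 CPM (329 to 1053) in WT and 1151 (867 to 1771) in matKO (0.86 ± 0.15, adjusted p = 0.000651). Ddit3, a transcription factor of the stress response, held 14.4 CPM (7.63 to 23.7) and 20.9 (11 to 39.4), with a change of 0.75 ± 0.20 (adjusted p = 0.0174). All 3 ranges overlap. Ddit3 shares 68 bases of exon with Mars, which was not called.

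In ExE, 8 of 21 tested genes of the Atf4 response were higher in matKO and 2 lower, where 14.1% of all genes were higher and 10.7% lower, with a median of 0.56 over the list and -0.07 over all genes. Phgdh, the first enzyme of serine synthesis, held 19.6 CPM (8.21 to 41.8) in WT and 112 (69.6 to 182) in matKO, without overlap (2.32 ± 0.27, adjusted p = 3.63e-06). Sesn2, a leucine-binding inhibitor of mTORC1, was higher by 2.10 ± 0.29 (adjusted p = 2.91e-05), and Nupr1, a stress-induced nuclear protein, by 4.01 ± 0.76 (adjusted p = 0.000687). Atf4 itself was lower in matKO ExE, at 413 CPM (246 to 439) against 616 (364 to 869) in WT (-0.66 ± 0.20, adjusted p = 0.0163). Psph, the last enzyme of serine synthesis, was also lower (-0.83 ± 0.17, adjusted p = 0.00152). The list held called members on both sides, and a part of Atf4 in the values of Tars and Aars was not tested. In oocytes and 2-cell embryos 0 genes of this list, and 0 of the 3 lists that follow, were called between genotypes.

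A further list holds charging partners: scaffolds, the amidotransferase that makes mitochondrial glutaminyl-tRNA, enzymes of the selenocysteine route, and the synthetases Pars2 and Tarsl2, whose symbols fall outside the family rule. From 2-cell embryo to blastocyst in WT, 12 of 14 rose and 0 fell (28.3% and 41.9% of all genes), with a median of 1.65 over the list and -0.51 over all genes. In blastocysts 0 of 13 were called between genotypes. In ExE 2 of 14 were higher in matKO, Aimp2 and Gatb, and 4 lower, against 14.1% and 10.7% of all genes. The scaffold Aimp2 held 3.17 CPM (0.977 to 17.6) in WT and 39.9 (2.95 to 68.3) in matKO (2.77 ± 0.60, adjusted p = 0.00256), while the scaffold Aimp1 was lower (-0.54, adjusted p = 0.0422). Tarsl2, another cytosolic threonine gene, was lower (-1.18 ± 0.32, adjusted p = 0.00997), opposite to Tars. Sepsecs, the last enzyme of the selenocysteine route, was lower too (-0.76, adjusted p = 0.0148).

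Elongation factors carry the charged tRNAs to the ribosome. The 5 cytosolic ones all rose from 2-cell embryo to blastocyst in WT, where 28.3% of all genes did, with a median of 3.36, and 3 were higher in matKO ExE, where 14.1% of all genes were: Eef1g (1.81 ± 0.32, adjusted p = 0.00033) and Eef1a1 (2.46 ± 0.45, adjusted p = 0.000654), both parts of the EF-1 machinery that Vars joins, and Eef2 (0.98 ± 0.28, adjusted p = 0.0131). Eef1a1 has many processed copies in the genome, so its counts are uncertain. Of the 4 mitochondrial factors, 3 rose into the blastocyst in WT, at the same share of all genes. Gfm1, a mitochondrial elongation factor, was lower in matKO in both tissues that showed calls, by -0.62 ± 0.16 in blastocysts (adjusted p = 0.0171) and -0.77 ± 0.20 in ExE (adjusted p = 0.00759). Tsfm, the exchange factor of mitochondria, was higher in matKO ExE (0.65 ± 0.22, adjusted p = 0.0358).

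The effect of genotype was not shown to differ between female and male embryos for any member. By edgeR's test of genotype by sex, 0 of 36 were called in 2-cell embryos, blastocysts and ExE, where 0%, 0.00744% and 0% of all genes were called, and DESeq2 was not run on this term. At an unadjusted p under 0.05 there were 2 members in 2-cell embryos (Vars2 and Rars2), 1 in blastocysts (Lars2) and 0 in ExE. Vars2 had the difference nearest to a call in 2-cell embryos by the size of its change over its error, at -2.10 ± 0.95 (unadjusted p = 0.0359, adjusted p = 0.759 by edgeR). Lars2 (mitochondrial leucine) had -0.94 ± 0.42 in blastocysts (unadjusted p = 0.0339).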

How the data were processed

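The deposited files give raw counts per gene, as whole numbers and in a separate table for each stage, for 76 libraries of polyadenylated RNA built with the Accel-NGS 2S kit per the labels' protocols. The submitters' processing notes name Trim Galore, STAR, SAMtools, featureCounts and build mm10. The sources used here do not give versions, the annotation release or the strand setting. The tables also hold 8 columns that match no sample in the labels, and these were not used.

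No replicate pair agreed within sampling noise (lowest chi-square per degree of freedom 10.1). Genes were filtered by filterByExpr (minimum count 10), scaled by TMM and tested with edgeR 4.0.16 (estimateDisp, glmQLFit robust, glmQLFTest) in R 4.3.3, with Benjamini-Hochberg adjustment over all genes tested and a threshold of 0.05. Each stage was fitted alone, with sex as a term except in oocytes and the identifier prefix as a term in blastocysts. Stage differences came from 1 fit over all libraries with a mean for each stage and genotype and a term for males. The tests were tried on simulated counts. For ExE and for the step from 2-cell embryo to blastocyst in WT, the share of unchanged genes among those called was above the threshold; for oocytes, 2-cell embryos and blastocysts it was below. Alternatives were DESeq2 1.42.0, other scalings, filters, a GC offset, left-out libraries and a replicate block.

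Members named with values are up to 4 called ones with the smallest p per direction and comparison (the 3 with the smallest p where none was called), every member called between genotypes apart from 1 that is not reported here, and the 4 highest and lowest by RPKM. From other lists they are up to 3 called genes per comparison. Other named genes were chosen after their values were seen. The members and gene lists were chosen with earlier results of these data known. Motifs were searched in RefSeq promoter windows (GRCm38.p6).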

Additional observations from a re-analysis of the deposited data

Results flagged for a closer look

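In WT ExE, 4 called members had 1 library far above the rest by Dixon's test, of 42 groups tested; chance gives about 1 in 20. For Cars2 it was WT female 2, at 9.44 CPM with the next at 6.05. For the other 3 it was WT female 6: Hars at 173 CPM (next 105.9), Rars2 at 206 (next 124.9) and Wars2 at 51.3 (next 31.6).

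The change from 2-cell embryo to blastocyst differed between matKO and WT for 5 members by the test of the difference, on the log2 scale: Wars2 by 2.09, Rars2 by 1.85, Sars2 by 1.24, Sars by 1.17 and Iars by -0.94. The change from blastocyst to ExE differed for 6: Vars by 2.72, Fars2 by 1.61, Wars by 1.45, Hars by 1.35, Mars2 by -1.17 and Wars2 by -2.03. In the first set the fit held no term for prefix, although blastocysts are split between prefixes. In the second set the prefix of the libraries and the genotype cannot be told apart.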

How the results depend on the processing

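No called change of a named member turned its direction under another setting. The family's summed median did turn with the scaling, and this was not tested. In blastocysts it was 6202 CPM in WT and 6421 in matKO with TMM, and 5748 and 5528 with library totals. In ExE it was 4298 and 5050 with TMM, and 4009 and 3530 with library totals. From WT oocytes to WT 2-cell embryos it went from 2402 to 1997 with TMM, and from 2738 to 2844 with library totals. Of the counts of members called, 366 values stayed within 1.5 times the reported one and 50 moved. Of the values of named genes and the family's summed medians, 1182 kept their side of the threshold or stayed within the spread between libraries. A call was lost in 104 and gained in 11. The 6 that moved were all summed medians of the family, with library totals in place of TMM scaling.

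In 2-cell embryos members called higher numbered 2 by DESeq2, 1 without estimateDisp, 1 with median-ratio scaling and 3 without matKO embryos 37 to 41, and those called lower 1, 1, 0 and 10. In blastocysts 1 was higher with library totals, 1 within D405T, 1 within D707T and 1 with the replicate block, while 2 were lower without the prefix term and 0 within D405T, within D707T and with the block. In ExE 7 were higher with library totals and 1 without the stroma-rich samples, and 4 were lower with the GC offset, 5 with the block and 0 without the stroma-rich samples. Of the steps, 2-cell to blastocyst in matKO had 1 lower with the GC offset and 4 with library totals. Its difference between genotypes had 1 higher with library totals, 0 with D707T blastocysts alone and 2 with the block, and 2 lower with the GC offset. Blastocyst to ExE in WT had 4 higher by DESeq2, 4 with the GC offset, 2 without estimateDisp, 4 with median-ratio scaling and 0 without the filter. In matKO it had 1 higher with library totals and 1 with the block, and the difference had 4 lower by DESeq2, 4 without estimateDisp, 4 with library totals, 1 without the filter and 0 with the block. The cause was not tested.

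Leaving out each replicate in turn gave 0 to 1 higher in 2-cell embryos and 0 lower, 1 to 3 higher and 1 to 2 lower in blastocysts, and 9 to 13 higher and 5 to 8 lower in ExE, with 5 lower without WT female 4 or WT male 2. In oocytes it gave 0 in both directions. From oocyte to 2-cell embryo it gave 7 to 10 higher and 7 to 12 lower in WT, 7 to 8 higher and 14 to 17 lower in matKO, and 0 to 1 lower for the difference, with 1 lower without WT oocyte 1.

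Replicate numbers are shared between genotypes, but same-numbered samples did not deviate together (median correlations 0.07 for oocytes, 0.00 for 2-cell embryos, 0.10 for blastocysts and -0.04 for ExE), so the block was not used. With it, 1 gene was called for oocytes, 14 for 2-cell embryos, 427 for blastocysts and 2519 for ExE, against 3, 106, 847 and 3520, and a sample correlated best with its own number in 1 of 3, 2 of 11, 4 of 13 and 0 of 8 cases. Depth limits low members such as Yars in oocytes and Vars2 and Rars2 in 2-cell embryos, some of which held 0 counts.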
